A study of Mus musculus with 34 samples.

Results

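Trimethylation of lysine 4 of histone H3 (H3K4me3) was measured at the promoters of 10 genes that encode the enzymes of this mark and their partners, out of 21938 protein-coding genes. The genes were 4 methyltransferases (*Kmt2a*, *Kmt2b*, *Setd1a* and *Setd1b*), 3 subunits of methyltransferase complexes (*Cxxc1*, *Wdr5* and *Ash2l*) and 3 demethylases (*Kdm5a*, *Kdm5b* and *Kdm1a*). They were chosen by function, and the value of each was the mean signal within 1000 bp of the 5′ end of the gene in GENCODE M21 on mm10. CUT&RUN brings micrococcal nuclease to a chromatin protein through an antibody, and the DNA fragments it releases are sequenced. The libraries came from villus cells scraped from the small intestine of C57BL/6J mice, 2 wild type (WT) and 2 ApcMin/+, which carry a germline mutation of the tumour suppressor gene *Apc* in all tissues. The sample labels give an age of 5 weeks, the design text of the series gives a range of 5-6 weeks, and the tissue was taken while it looked normal. No treatment is named in the labels for either group, and the age in the methods is 6 weeks. Each library is labelled as a separate replicate, and the numbers of mice given in the methods match the numbers of libraries at that age.

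H3K4me3 is laid down at promoters by complexes built around a catalytic SET-domain protein. SETD1A and SETD1B place most of it at active CpG-rich promoters and are brought there by CXXC1, which binds unmethylated CpG. KMT2A and KMT2B act at more restricted sets of genes, with KMT2B prominent at CpG islands of genes kept ready for use. WDR5 and ASH2L belong to the core that every one of these enzymes needs for full activity. KDM5A and KDM5B remove the trimethyl and dimethyl forms, and KDM1A removes the dimethyl and monomethyl forms. The intestinal epithelium is renewed continuously from crypts, and villus cells are its differentiated compartment.

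The libraries differed in depth and, more strongly, in enrichment. The tracks held 1430000 and 4790000 tags in WT replicates 1 and 2 and 3700000 and 5470000 in ApcMin/+ replicates 1 and 2. The mean signal over all promoters was 2.59 and 1.76 in the WT libraries and 6.85 and 2.35 in the ApcMin/+ libraries, whereas the background away from promoters and enriched regions was lowest in ApcMin/+ replicate 1, at 0.200 against 0.283 to 0.324 in the others. ApcMin/+ replicate 1 therefore stood apart from its own group, and the values are given with and without it. The labelled tissue was checked against its markers. Of 14 enterocyte markers, 13 passed the filter of a mean signal of at least 2, with a summed signal of 51.8 to 260.3 per library, whereas 0 of 8 immune, 0 of 8 mesenchymal and 0 of 6 markers of other organs passed it. The summed immune signal was 6.06 and 5.04 in WT and 8.41 and 6.12 in ApcMin/+, beside enterocyte sums of 82.1 and 51.8 and of 260.3 and 65.3. *Ptprc*, *Pdgfra*, *Col1a1* and *Col3a1* were at 0 in WT replicate 1, the library with the fewest tags. The 3 crypt and cycling markers that passed the filter of 6, *Mki67*, *Top2a* and *Ccnb1*, were higher in both ApcMin/+ libraries than in both WT libraries. So were 38.5% of all promoters that passed the filter. The part of the cell mixture in the values below was not tested.

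Promoter sequences were available for 5 of the 10 genes in the RefSeq table (GRCm38.p6, which is mm10), as 300 bases that run from 250 before to 50 after the RefSeq start. *Kmt2b*, *Setd1b*, *Cxxc1*, *Ash2l* and *Kdm5a* had no entry. By the mean signal of the libraries over these 300 bases, the highest promoter was *Wdr5* (chr2:27514897-27515196, plus strand). The lowest pair was *Kdm5b* (chr1:134559928-134560227, plus strand) and *Kdm1a* (chr4:136602674-136602973, minus strand). They are shown 5′ to 3′ because they hold the extremes of this mean among the genes matched. Capitals mark CpG, the dinucleotide that CXXC1 binds.
Wdr5: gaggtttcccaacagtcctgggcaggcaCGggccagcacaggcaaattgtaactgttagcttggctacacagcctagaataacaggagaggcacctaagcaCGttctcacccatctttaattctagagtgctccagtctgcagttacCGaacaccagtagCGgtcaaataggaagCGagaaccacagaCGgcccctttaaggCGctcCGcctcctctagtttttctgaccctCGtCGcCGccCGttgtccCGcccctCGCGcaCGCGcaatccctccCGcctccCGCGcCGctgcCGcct
Kdm5b: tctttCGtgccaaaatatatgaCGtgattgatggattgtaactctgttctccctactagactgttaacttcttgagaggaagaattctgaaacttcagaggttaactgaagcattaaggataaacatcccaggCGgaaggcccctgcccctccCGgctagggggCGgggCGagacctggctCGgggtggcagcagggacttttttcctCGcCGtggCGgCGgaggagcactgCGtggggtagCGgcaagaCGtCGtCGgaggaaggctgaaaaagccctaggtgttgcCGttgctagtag
Kdm1a: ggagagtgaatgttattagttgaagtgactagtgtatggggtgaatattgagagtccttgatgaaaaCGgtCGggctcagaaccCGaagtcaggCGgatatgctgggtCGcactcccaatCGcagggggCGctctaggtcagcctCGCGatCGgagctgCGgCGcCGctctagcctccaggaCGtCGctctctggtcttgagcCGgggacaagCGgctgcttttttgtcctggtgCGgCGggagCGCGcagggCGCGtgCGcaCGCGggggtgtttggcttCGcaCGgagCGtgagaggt

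The *Wdr5* promoter held 22 CpG and had a signal of 21.3 and 9.31 in WT and 32.8 and 12.5 in ApcMin/+. The *Kdm1a* promoter held more CpG, 29, but had a signal of 0.00 and 1.66 in WT and 2.76 and 2.62 in ApcMin/+. The *Kdm5b* promoter held 17 CpG, with 3.15 and 2.12 in WT and 4.05 and 1.18 in ApcMin/+. CpG number and the mark were thus not in the same order among these promoters, and the median over 20150 RefSeq promoters of 300 bases was 14 CpG. *Kmt2a* and *Setd1a*, the other matched genes, had 36 and 35. The letters CACGTG (an E-box), CTTTGAT (a TCF/LEF motif), CCGGAAG (an ETS motif) and the palindromic core of the NRF1 motif were looked for on both strands. They were found in 0 of the 5 promoters, and in 8.03%, 3.16%, 11.9% and 1.38% of all promoters of this length. The TCF/LEF motif was included because loss of APC function raises Wnt signalling, which acts through these factors.

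Over the wider windows of 1000 bp on each side, all 10 genes except *Ash2l* lay in CpG-rich sequence. The *Ash2l* window held 40 CpG and the other 9 held 102 (*Wdr5*) to 166 (*Setd1b*), against a median of 61 over all protein-coding windows. Across the 21938 windows CpG number and signal were correlated, with a Spearman's rho of 0.64 to 0.68 in each library. These points share a library and CpG-poor genes are often silent, so the value is given as a description. Within the set, *Kdm5b* and *Kdm1a* had 129 and 138 CpG and mean signals of 2.20 and 2.46, whereas *Wdr5* and *Cxxc1* had 102 and 103 CpG and mean signals of 8.70 and 5.79. The 5471 windows with 99 CpG or more had a median signal of 5.25, so that *Kdm5b* and *Kdm1a* lay below it and *Wdr5* and *Cxxc1* above.

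The order of the 10 promoters was partly the same in every library. *Kmt2b* was the highest and *Ash2l*, at its annotated gene 5′ end, the lowest in 4 of 4 libraries. *Kmt2b*, on chromosome 7 (chr7:30568858-30588726, minus strand), had a signal of 13.7 and 5.56 in the WT libraries and 25.9 and 7.44 in the ApcMin/+ libraries. It stood at the 96.0 to 99.6 percentile of all protein-coding promoters of its library. The WT and ApcMin/+ values overlapped, since the second ApcMin/+ library was below the first WT library. *Kdm5a*, *Wdr5* and *Setd1a* came next by the mean over the libraries, at 8.72, 8.70 and 8.67, and neighbours among these 3 changed places in 2 of 4 libraries. *Setd1b* and *Cxxc1* also changed places in 2 of 4, as did *Kdm1a* and *Kdm5b* at the lower end. *Kmt2a* was above *Kdm1a* in 4 of 4. These levels are means per base over windows of 1 length, so genes can be set side by side.

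**Figure D1:**
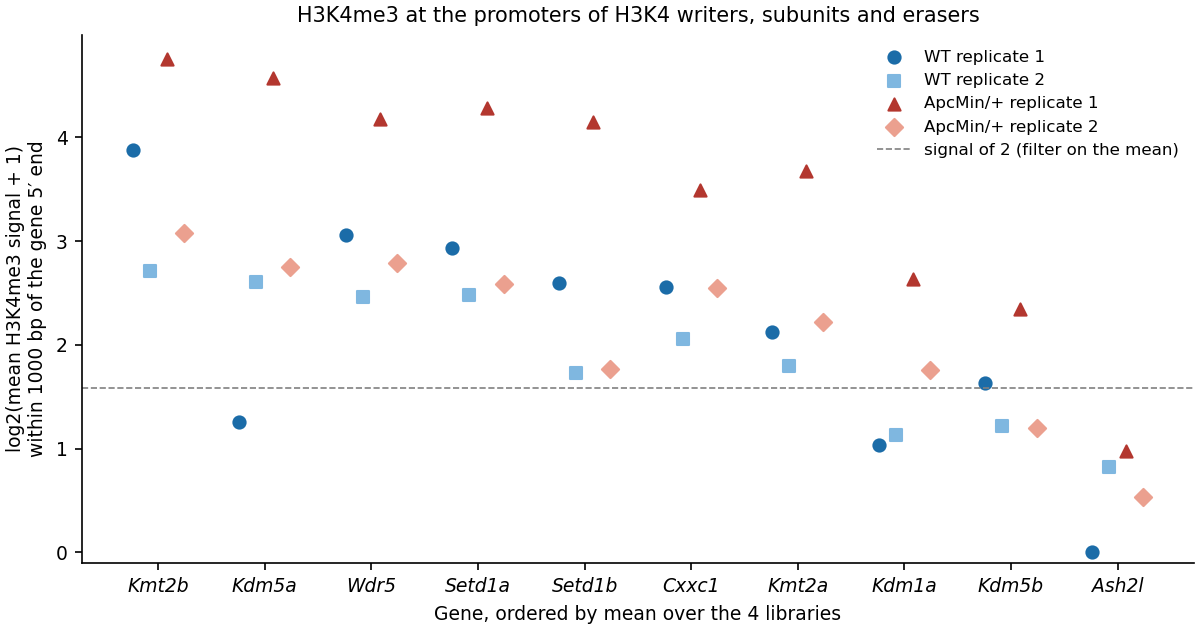
Mean H3K4me3 signal within 1000 bp of the gene 5′ end, on the scale log2(signal + 1), for each of the 10 genes (x axis, ordered by the mean over the 4 libraries) and each library (1 point per library). ApcMin/+ replicate 1 is the highest library at all 10 genes, and *Kdm5a* is low in WT replicate 1 alone.

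Among the methyltransferases, *Kmt2a* (chr9:44803355-44881296, minus strand), whose translocations drive leukaemia, had a signal of 3.37 and 2.49 in WT and 11.8 and 3.66 in ApcMin/+. Both ApcMin/+ values were above both WT values, although the closer pair, 3.37 and 3.66, rested on 10 and 40 fragments in libraries of unlike depth. On the scale of the signal the exact 95% Poisson intervals of this pair were 1.68 to 6.43 and 2.61 to 4.98, which overlapped. These intervals cover counting error only, as do the others on fragments. *Setd1a* (chr7:127776670-127800122, plus strand) had 6.63 and 4.59 in WT and 18.5 and 4.99 in ApcMin/+. Its paralogue *Setd1b* (chr5:123142193-123168629, plus strand) had 5.06 and 2.32 in WT and 16.7 and 2.40 in ApcMin/+. At both genes ApcMin/+ replicate 2 lay between the WT libraries, so the groups overlapped.

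Among the subunits, *Wdr5* (chr2:27515157-27536535, plus strand), which holds the complex together, had a signal of 7.32 and 4.49 in WT and 17.1 and 5.92 in ApcMin/+. *Cxxc1* (chr18:74216124-74221496, plus strand) had 4.88 and 3.15 in WT and 10.3 and 4.85 in ApcMin/+, the last value being just under the higher WT library. The groups overlapped at both genes. *Ash2l* (chr8:25815996-25847694, minus strand) had 0.00 and 0.77 in WT and 0.97 and 0.45 in ApcMin/+ at the gene 5′ end, from 0, 7, 7 and 5 fragments. It did not pass the filter and was not tested there.

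Among the demethylases, *Kdm5a* (chr6:120364124-120444574, plus strand) had a signal of 1.39 and 5.08 in WT and 22.7 and 5.71 in ApcMin/+. WT replicate 1 held 4 fragments at *Kdm5a* (95% interval 1.09 to 10.2), at the 51.9 percentile of its promoters. The other 3 libraries held 49, 168 and 62 fragments, at the 89.9 to 94.96 percentile. *Kdm5b* (chr1:134560171-134635285, plus strand) had 2.09 and 1.32 in WT and 4.097 and 1.30 in ApcMin/+, where the lowest of all 4 was an ApcMin/+ library. *Kdm1a* (chr4:136550540-136602723, minus strand), also known as LSD1, had 1.05 and 1.19 in WT and 5.21 and 2.39 in ApcMin/+. Both ApcMin/+ values of *Kdm1a* were above both WT values, from 3 and 11 fragments against 39 and 26. By the mean over the libraries *Kdm1a* and *Kdm5b* were the least marked of the 9 promoters tested, although *Kdm5a* was below *Kdm5b* in WT replicate 1. They stood at the 45.9 to 60.3 percentile of all protein-coding promoters of their library.

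The mark was not placed in the same way around each 5′ end. At *Kmt2a* 20.7% and 39.95% of the window signal in WT and 29.5% and 43.8% in ApcMin/+ lay downstream, below the lower quartile of all tested promoters (49.3% to 50.8%) in every library. Its highest 100 bp on the mean of the 4 tracks lay upstream, from -460 to -361 bp, and those of each library began between -460 and -240 bp. At *Setd1a* 68.5% to 77.0% lay downstream, and the highest 100 bp were 500 to 599 bp downstream, just beyond the 5′ end of *Setd1a-206* at 479 bp, its most marked annotated end. *Setd1b* had 57.01% downstream in WT replicate 1 but 24.0% to 25.8% in the other 3 libraries. *Kdm1a* had 61.0% to 100.0% downstream, the latter from 3 fragments in WT replicate 1. Its highest 100 bp lay 500 to 599 bp inside the gene, just beyond the 5′ end of *Kdm1a-201* at 415 bp. *Kdm5b* had 65.6% to 89.9% downstream, and its highest 100 bp on the mean track lay at 1120 to 1219 bp, outside the window. This position came from the ApcMin/+ libraries (from 1140 and 1160 bp), whereas in the WT libraries the highest 100 bp began at 40 and 0 bp. The *Kdm5b* windows held only 6 and 13 fragments in WT and 30 and 14 in ApcMin/+. Its shares and positions are therefore uncertain, and a difference between genotypes was not tested. *Wdr5* was split evenly, with 42.0% to 52.9% downstream, and *Kmt2b* had 39.8% to 54.8%. The medians over all tested promoters were 65.7% to 69.5%. These shares are taken within a library and do not depend on its scaling.

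**Figure D2:**
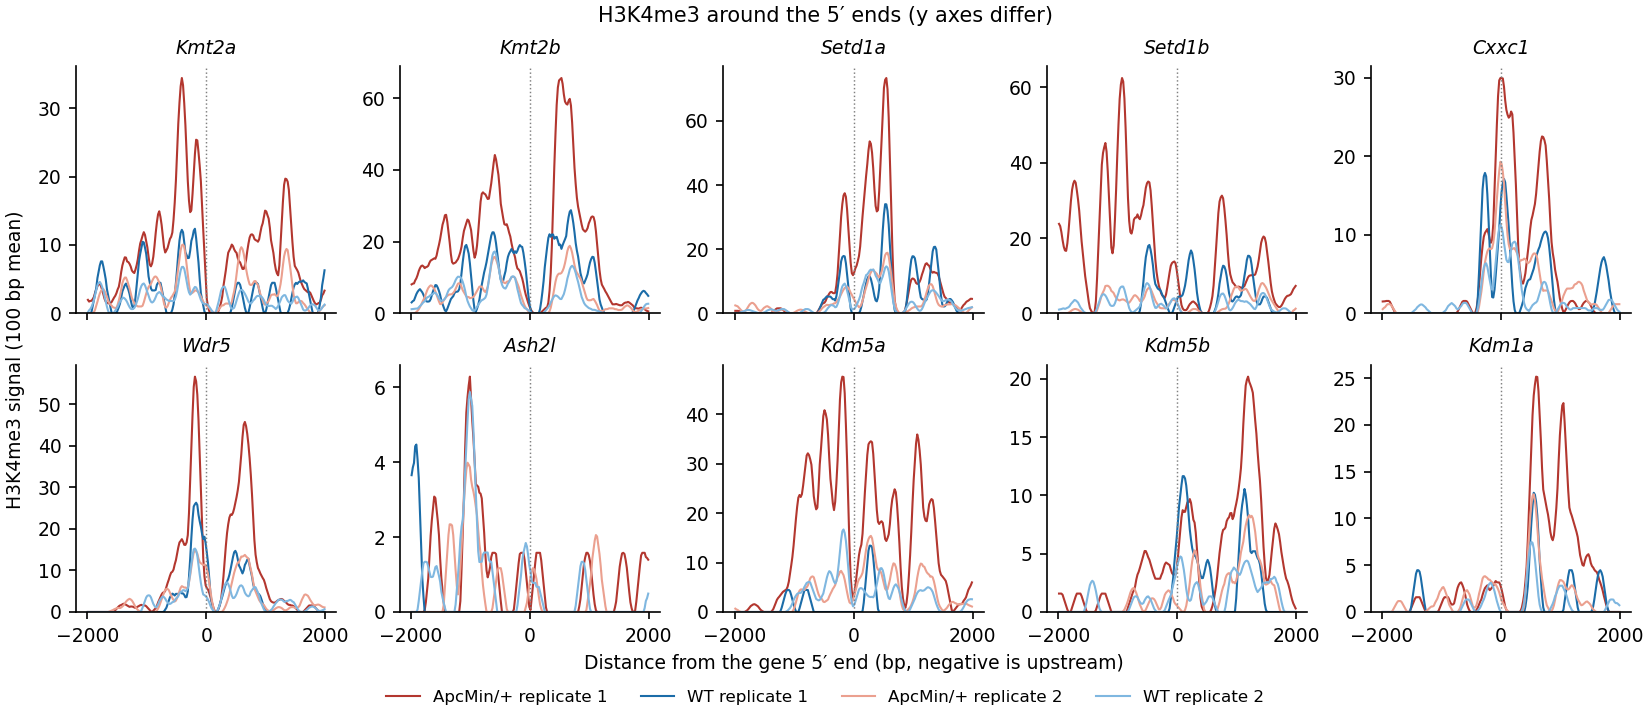
H3K4me3 signal (y axis, mean over 100 bp, a separate scale for each gene) against the distance from the gene 5′ end (x axis, bp, dotted line at 0) at the 10 genes, 1 line per library. Within 1000 bp, *Setd1a*, *Cxxc1*, *Kdm5b* and *Kdm1a* carry most of the signal downstream of the 5′ end, as the median tested promoter does. *Kmt2a* carries most of it upstream, as does *Setd1b* except in WT replicate 1. At *Ash2l* the scale does not pass 7 in any library.

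*Ash2l* carried the mark, but not at its annotated gene 5′ end. That position (25847694) belongs to 1 transcript, *Ash2l-204*. At the 5′ end of *Ash2l-201* (25840787), 6907 bp downstream, the signal was 7.54 and 5.75 in WT and 26.3 and 5.64 in ApcMin/+, from 22, 55, 195 and 62 fragments. This put *Ash2l* at the 89.5 to 97.4 percentile of all protein-coding genes taken at their gene 5′ ends. The ranking sets the most marked end of *Ash2l* against ends that were not picked in this way. The WT and ApcMin/+ values at *Ash2l-201* overlapped. The log2 difference was 0.83 ± 1.25 (SE, n = 2 and 2), with an adjusted p of 0.68 by limma. That fit took every gene at its most marked 5′ end. The window at *Ash2l-201* held 107 CpG against 40 at the gene 5′ end. At the 4 transcripts that start further inside the gene, from 14149 to 24119 bp, the mean signal was 0.35 to 1.37.

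**Figure D3:**
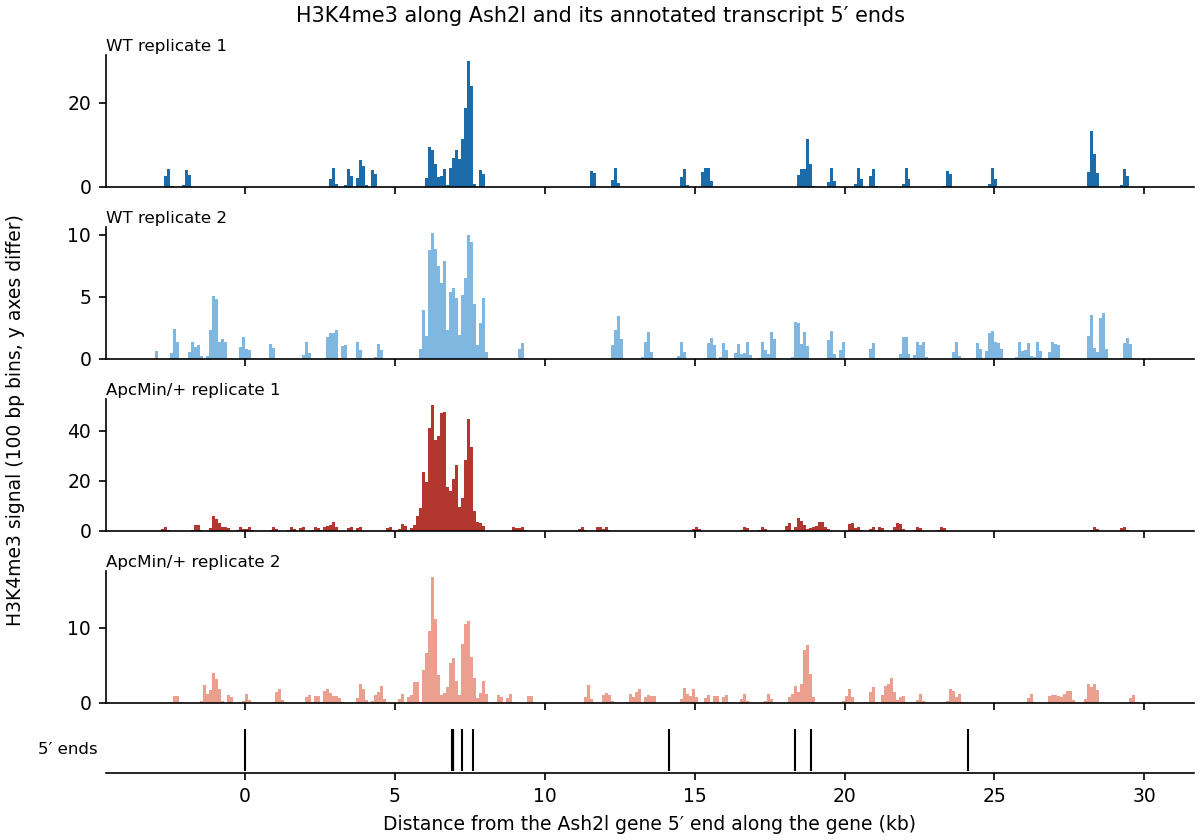
H3K4me3 signal in 100 bp bins (y axis, a separate scale for each library) along *Ash2l* against the distance from its gene 5′ end (x axis, kb), with the annotated transcript 5′ ends as ticks at the bottom. In all 4 libraries the highest bin lies between 6 and 8 kb, around the 5′ end of *Ash2l-201* and its neighbours, and not at 0, while lower isolated bins further inside the gene are tallest in WT replicate 1.

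The other 9 genes had their most marked annotated 5′ end within 1000 bp of the gene 5′ end. Over all protein-coding genes, 10081 had a mean signal under 1 at the gene 5′ end. Another annotated 5′ end more than 1000 bp away had a mean signal of at least 5 at 334 of these (3.31%). These 334 are 1.52% of all 21938 genes. Of the other genes of H3K4 methylation examined, *Dpy30*, a core subunit with WDR5 and ASH2L, was among them, with 0.62 at the gene 5′ end and a mark 7741 bp downstream of 7.32 and 2.96 in WT and 12.6 and 5.19 in ApcMin/+. *Hcfc2* (0.52 at the gene 5′ end) had 5.71 and 3.02 in WT and 12.9 and 4.81 in ApcMin/+ at an end 3051 bp downstream. *Phf21a*, a partner of KDM1A, had 0.40 at the gene 5′ end and 1.39 and 2.35 in WT and 12.2 and 2.75 in ApcMin/+ at an end 91675 bp downstream, a mean signal just under 5. *Smyd1*, a muscle enzyme, had a mean signal of 0.44 and at its most marked annotated end the signal was 0.27 to 1.05.

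*Kdm5a* shares its promoter. The 5′ end of *Ccdc77*, on the other strand, lies 250 bp away inside the *Kdm5a* gene, so that the genes overlap head to head and their windows hold largely the same fragments. The *Ccdc77* window had a signal of 1.11 and 5.02 in WT and 23.0 and 6.18 in ApcMin/+, with the same low value in WT replicate 1, and the mark cannot be given to one gene or the other. A microRNA, *Mir3569*, starts 654 bp upstream of *Kmt2b* on the other strand, and a lincRNA, *AI480526*, starts 527 bp upstream of *Setd1b* on the other strand.

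The enriched regions at the 9 marked gene 5′ ends, called once on the mean of the 4 tracks, ranged from 1300 bp (*Cxxc1*) to 10500 bp (*Setd1b*). The median over 10936 promoters whose 5′ end lay in a region was 1900 bp. The region of *Setd1b* was at the 99.9 percentile by width and held the 5′ ends of *AI480526* and a further lincRNA, *4932422M17Rik*. It ran 7592 bp upstream and 2907 bp downstream, with a mean signal of 4.68 and 3.06 in WT and 18.2 and 3.88 in ApcMin/+. Without ApcMin/+ replicate 1 it was 2900 bp wide, so its breadth rests on that library. The regions of *Kmt2a* (4000 bp) and *Kmt2b* (3800 bp) were at the 91.9 and 90.4 percentile. Without ApcMin/+ replicate 1 the *Kmt2b* region was 3700 bp wide, while the *Kmt2a* region broke in 2, of which the nearer was 1800 bp. *Kdm5a* had a region of 3200 bp, *Setd1a* 2700 bp, *Kdm1a* 2000 bp, *Kdm5b* 1900 bp and *Wdr5* 1800 bp. Some widths depended on how regions were joined. At a threshold of 10 times the mean of the genome the *Kdm5b* region was 300 bp and the *Kdm1a* region 800 bp wide. When bins were joined over gaps of 200 bp or less they were 600 and 900 bp, and that of *Kmt2a* was 1900 bp.

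To compare genotypes, limma was fitted to log2(signal + 1) at the 9930 promoters that passed the filter, among them 9 of the 10 genes. 0 of the 9 passed an adjusted p of 0.05, and 0 of the 9930 did (0%), with 0 of the 9 and 132 of the 9930 at an unadjusted p under 0.05. The log2 differences (ApcMin/+ minus WT) of all 9 were above 0, and their median was 0.73 against 0.85 over all tested promoters. That they were above 0 is therefore what most tested promoters showed. The filter on the mean lets in promoters that are high in ApcMin/+ replicate 1 alone. *Kdm1a*, at 1.05 and 1.19 in WT, passed it through its ApcMin/+ values. *Kdm5b* passed it through ApcMin/+ replicate 1, at 4.097 there against 2.09 and 1.32 in WT and 1.30 in ApcMin/+ replicate 2. With no filter the median was 0.35 over all 21938 promoters and 0.73 over the 10 genes. Both ApcMin/+ libraries were then above both WT libraries at 5694 of the 21938. The count of 0 calls has to be read with the spread. In simulated data with equal libraries the test recovered 96.0% of 200 promoters changed 4-fold. With 1 library raised 3-fold at every promoter it recovered 0%, or 98.5% once each library was centred. The spread between simulated replicates was assumed and not taken from these libraries. These shares are therefore not the power of the fits to the real data, centred or not.

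By gene, the log2 difference was 1.73 ± 1.08 (SE) at *Kdm5a*, 1.11 ± 0.63 at *Kdm1a* and 0.98 ± 0.93 at *Kmt2a*. It was 0.79 ± 0.97 at *Setd1b*, 0.73 ± 1.18 at *Setd1a*, 0.73 ± 1.19 at *Wdr5*, 0.72 ± 1.02 at *Cxxc1*, 0.62 ± 1.26 at *Kmt2b* and 0.35 ± 0.62 at *Kdm5b*. The limma adjusted p-values of these 9 were 0.68 to 0.70, and the 95% intervals all held 0, from -1.86 to 3.10 at the widest (*Kmt2b*). Both ApcMin/+ libraries were above both WT libraries at 3 of the 9, *Kdm5a*, *Kdm1a* and *Kmt2a*, against 38.5% of all tested promoters, a share of the same order. None of the 9 had both ApcMin/+ libraries below both WT libraries, which was rare among all tested promoters (16 of 9930). Without ApcMin/+ replicate 1 the differences of *Setd1b*, *Kdm5b*, *Kmt2b* and *Setd1a* were negative, at -0.40, -0.22, -0.22 and -0.12. Without ApcMin/+ replicate 2, *Kdm5a*, *Kmt2a*, *Kdm1a* and *Setd1b* passed the threshold, as did 65.2% of all tested promoters as higher. That fit held 1 ApcMin/+ library, assumed to vary like the WT libraries, so it set the library that stood apart against the spread between 2 WT libraries only.

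**Figure D4:**
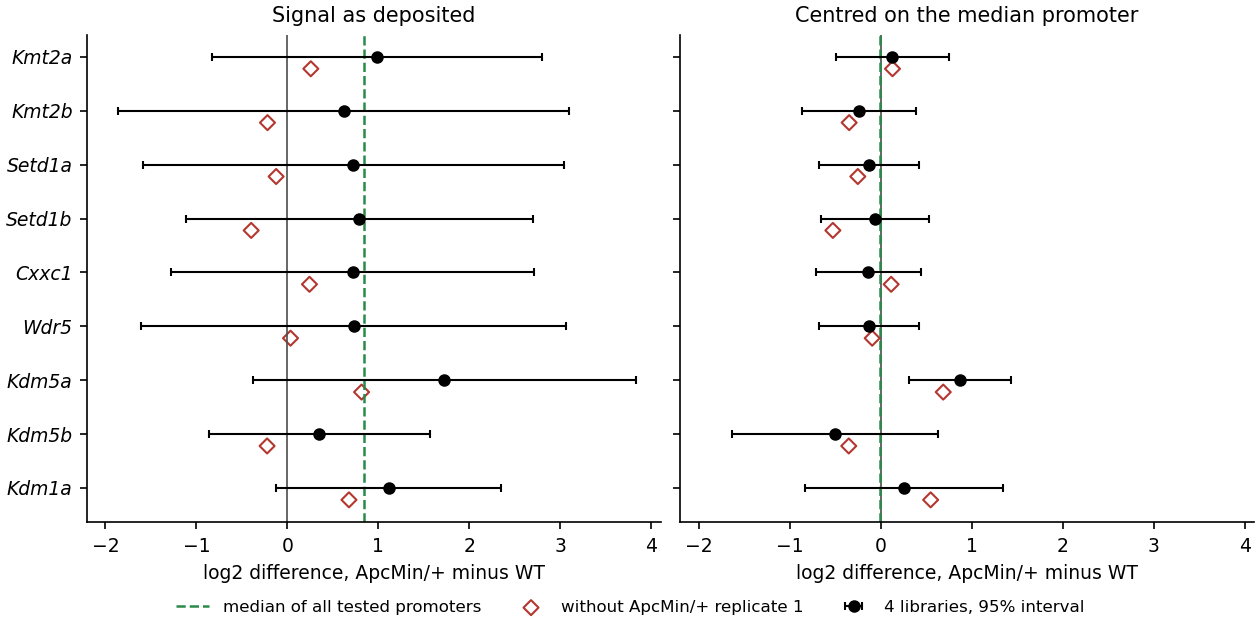
log2 difference, ApcMin/+ minus WT, of the H3K4me3 signal at the 9 tested genes (y axis), from the signal as deposited (left) and after centring each library on its median tested promoter (right), with 95% limma intervals. Diamonds leave out ApcMin/+ replicate 1 and the dashed line is the median of all tested promoters. As deposited every interval holds 0, and after centring 8 of the 9 do, the exception being *Kdm5a* (0.31 to 1.43), as at 294 of the 9930 tested promoters.

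When each library was centred on its median tested promoter, so that a value gives a gene relative to the other promoters of the same library, 0 of the 9 genes and 0.121% of the tested promoters passed the threshold. *Kdm5a* then had a log2 difference of 0.87 ± 0.29 (SE), with an adjusted p of 0.70. Its centred values were -1.21 and 0.58 in WT and 0.74 and 0.37 in ApcMin/+, so that WT replicate 2 lay between the ApcMin/+ libraries and only WT replicate 1 was apart. Without WT replicate 1 the centred difference was -0.02. Without WT replicate 2 it was 1.77 and passed the threshold, as did 0.181% of tested promoters, in a fit whose WT arm was replicate 1 alone and whose spread came from the 2 ApcMin/+ libraries only. The value of *Kdm5a* is thus set by the library with 4 fragments there. *Kdm1a* (0.26) and *Kmt2a* (0.13) were the others above 0. The remaining 6 were below 0, from -0.50 at *Kdm5b* to -0.06 at *Setd1b*, with *Kmt2b* at -0.24, *Cxxc1* at -0.14 and *Setd1a* and *Wdr5* at -0.13. After centring, both ApcMin/+ libraries were above both WT libraries at 1 gene, *Kmt2a*, against 13.1% of tested promoters. They were below at 3, *Setd1a*, *Wdr5* and *Kdm5b*, against 14.3%. The groups were barely apart at 2 of these. The lower WT and the higher ApcMin/+ centred values were 0.460 and 0.458 at *Setd1a* and 0.436 and 0.420 at *Wdr5*. At *Kdm5b* they were -0.84 and -1.17, from windows of 6 and 13 fragments in WT and 30 and 14 in ApcMin/+. The count of 3 was not tested against the share.

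The paralogues were compared within each library as the ratio of signal + 1, in which the scaling of the library cancels only in part. The log2 ratio of *Kmt2a* to *Kmt2b* was -1.75 and -0.91 in WT and -1.08 and -0.86 in ApcMin/+, so that *Kmt2b* was the more marked in 4 of 4 libraries. The groups overlapped, with a difference of 0.37 (two-sided exact permutation p = 0.67). With no pseudocount, where the scaling does cancel, the ratio was -2.02 and -1.16 in WT and -1.14 and -1.02 in ApcMin/+. The groups then did not overlap, with a difference of 0.51 (exact permutation p = 0.33, the smallest that 2 libraries against 2 can give). Without WT replicate 1 the difference with the pseudocount was -0.05. The ratio of *Setd1a* to *Setd1b* was 0.33 and 0.75 in WT and 0.14 and 0.82 in ApcMin/+, positive in 4 of 4, with a difference of -0.07 (exact permutation p = 1.00). The ratio of *Kdm5a* to *Kdm5b* was -0.37 and 1.39 in WT and 2.22 and 1.55 in ApcMin/+. Its groups did not overlap, with a difference of 1.37 (exact permutation p = 0.33). With the pseudocount all 3 adjusted p-values were 1.00, and no ratio could have passed 0.05 in this design. Without WT replicate 1 the difference for *Kdm5a* to *Kdm5b* was 0.50.

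**Figure D5:**
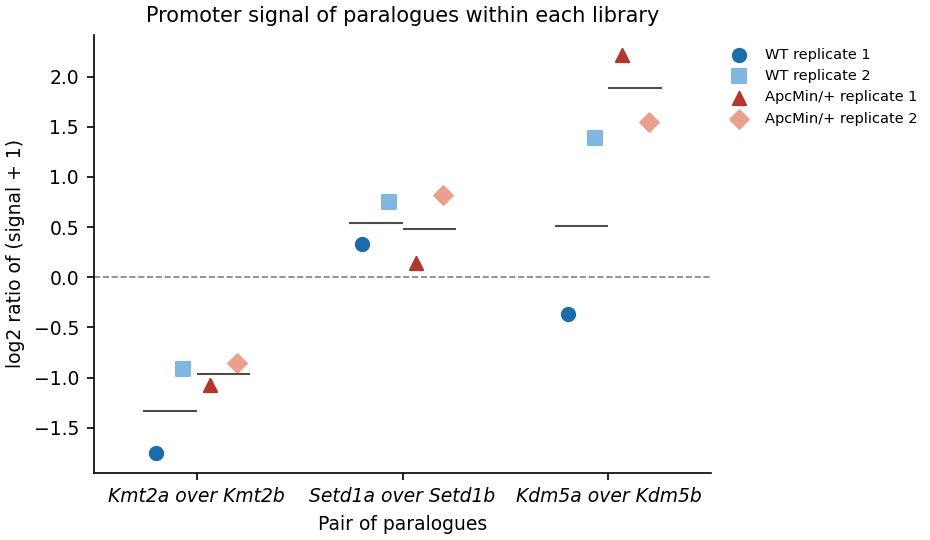
log2 ratio of (signal + 1) between paralogues (x axis) within each library, 1 point per library, with a short line at the mean of each genotype. *Kmt2b* exceeds *Kmt2a* and *Setd1a* exceeds *Setd1b* in 4 of 4 libraries, and WT replicate 1 is the only library with *Kdm5a* below *Kdm5b*.

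By role, the mean of log2(signal + 1) of the 4 methyltransferases exceeded that of the 3 demethylases in every library, by 1.58 and 0.53 in WT and by 1.03 and 0.51 in ApcMin/+. Replicate 2 of either genotype thus had nearly the same excess, and the first replicates had the larger ones. The excess was not shared by all 3 demethylases. *Kdm5a* was at place 2, 2 and 3 of the 10 genes in WT replicate 2 and ApcMin/+ replicates 1 and 2. In those libraries the excess rested on *Kdm5b* and *Kdm1a*. In WT replicate 1, with the largest excess, *Kdm5a* held only 4 fragments. The median log2 difference between genotypes was 0.76 over the 4 methyltransferases and 1.11 over the 3 demethylases, and after centring -0.10 and 0.26. Both demethylase medians are the values of *Kdm1a* alone. *Kdm1a* passed the filter through its ApcMin/+ values and *Kdm5b* through ApcMin/+ replicate 1. A difference between the roles was not tested.

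The wider set of H3K4 methylation genes had a similar median difference. Of 49 genes in 4 lists, 44 were tested and 0 passed the threshold by limma, with 1 at an unadjusted p under 0.05. Their median log2 difference was 0.82, and both ApcMin/+ libraries were above both WT libraries at 8 of the 44 (18.2%). This was below the 38.5% of all tested promoters and the 3 of 9 above, a difference that was not tested. The 13 tested writer complex subunits had a median of 0.81, the 11 tested erasers and partners 0.80, the 5 tested other methyltransferases 0.96 and the 15 readers of the mark 0.83. The highest were *Kdm5d* (1.70), the Y-linked member of the KDM5 family, and *Bod1l* (1.35), a SETD1A-associated protein. The lowest were *Ing5* (0.25), a reader of the mark, and *Smyd2* (0.31). *Kdm5d* had 0.35 and 1.15 in WT and 9.44 and 1.92 in ApcMin/+, and like *Kdm5a* it was lowest in WT replicate 1. It passed the filter only through ApcMin/+ replicate 1, which also gives it its high difference. Other Y-linked genes looked at had 7.38 to 13.8 in that library and 0.83 to 3.14 in the others. The part of sex in the value of *Kdm5d* was not tested. *Bod1l* had 3.84 and 3.10 in WT and 15.9 and 6.56 in ApcMin/+, and its centred difference was 0.49. The median over 9 tested H3K9 methyltransferase and HP1 genes, which act on the opposite kind of chromatin, was 0.78, and that over 10 tested Polycomb genes was 0.80.

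For the genes with the highest and the lowest mean signal among those tested, the promoters with the most similar values over the 4 libraries were found by Euclidean distance on log2(signal + 1). Nearest to *Kmt2b* were *Zfp687* (distance 0.08, with 13.6 and 5.45 in WT and 27.2 and 7.30 in ApcMin/+) and *Top2b* (distance 0.10). Nearest to *Kdm5b* were *Crtap* (distance 0.09, with 2.09 and 1.19 in WT and 4.06 and 1.32 in ApcMin/+) and *Sav1* (distance 0.14). These promoters were picked on the same 4 values, so their closeness in each library, ApcMin/+ replicate 1 included, follows from the choice.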

How the data were processed

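Per the labels, the 4 libraries analysed are CUT&RUN profiles of H3K4me3 in scraped villus cells, 2 wild-type and 2 ApcMin/+. The authors aligned them to mm10 with Bowtie2, removed duplicates with Picard and built tracks with HOMER. Each deposited value is signal, a coverage that the authors scaled to a total of 10000000 tags and to a common fragment length, with no control subtracted and no replicates pooled. A count model could therefore not be applied, and fragment numbers were recovered from summed signal and the stated tags (1430000 to 5470000).

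Members and lists were chosen with earlier results of these data known. Windows reached 1000 bp to each side of the GENCODE M21 gene 5′ ends (21938 protein-coding genes, 21 chromosomes). Those averaging 2 or more over the libraries (9930) entered limma 3.58.1 with a trend (R 4.3.3) on log2(signal + 1), which understates differences of low values, p-values being adjusted by Benjamini-Hochberg and called under 0.05. Regions were 100 bp bins of the mean track at 5 times the mean of the genome or more, merged when 500 bp apart or less and kept from 300 bp. Background lay outside regions and over 5000 bp from 5′ ends. Named were the 10 genes, protein-coding neighbours within 1000 bp, the 2 highest, the 2 lowest and the unmarked (under 1) genes of the other H3K4 lists, and the 2 promoters nearest to the highest and lowest gene. *Mir3569* and the lincRNAs were named after their positions were seen, and 7 markers after their values were seen. The fit was tested on simulated data. Other software was Python 3.11.15, with scipy 1.17.1, pandas 2.3.3 and numpy 2.4.6. Other antibodies, RNA-seq and older mice were not analysed here.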

Additional observations from a re-analysis of the deposited data

How the results depend on the processing

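Of 15 other settings for scaling, window, 5′ end, filter, pseudocount, block and libraries, 14 left 0 of the tested genes called, and leaving out ApcMin/+ replicate 2 gave 4. *Kdm1a* was not tested with windows of 500 or 2000 bp (8 genes tested), and 7 genes were tested at a mean signal of at least 5. The median log2 difference of the genes was -0.13 after centring and -0.13 after quantile normalization, where 6 genes turned negative. After centring these were *Kmt2b* (-0.24), *Setd1a* (-0.13), *Setd1b* (-0.063), *Cxxc1* (-0.14), *Wdr5* (-0.13) and *Kdm5b* (-0.50). After quantile normalization they were -0.23, -0.18, -0.13, -0.083, -0.13 and -0.39. Both ApcMin/+ libraries were above both WT libraries at 1 gene after centring. Centring lowers every gene by about the median of all tested promoters, and the cause of the quantile values was not tested.

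Leaving out each library in turn, alone and (added after the data were seen) with centring, gave medians of -0.17 to 1.55, 0 to 4 calls and 2 to 9 genes with every remaining ApcMin/+ library above every remaining WT library. By gene the differences were 0.070 to 1.71 at *Kmt2a*, -0.60 to 1.45 at *Kmt2b*, -0.25 to 1.58 at *Setd1a*, -0.52 to 1.98 at *Setd1b*, -0.39 to 1.19 at *Cxxc1*, -0.20 to 1.42 at *Wdr5*, -0.023 to 2.64 at *Kdm5a*, -0.65 to 0.93 at *Kdm5b* and -0.029 to 1.55 at *Kdm1a*. The paralogue differences were -0.054 to 0.78 for *Kmt2a* to *Kmt2b*, -0.40 to 0.27 for *Setd1a* to *Setd1b* and 0.50 to 2.25 for *Kdm5a* to *Kdm5b*. With windows of 500 bp that of *Setd1a* to *Setd1b* was 0.67 and with 2000 bp -0.47, and that of *Kmt2a* to *Kmt2b* was 0.56 and 0.21. Some differences moved by more than 1.5 times without turning. With windows of 500 bp they were 0.20 at *Setd1b*, 0.22 at *Kmt2b* and 0.075 at *Kdm5b*, which had 0.54 at 2000 bp and 0.58 after scaling to background. At a pseudocount of 5 they were 0.61 at *Kmt2a*, 0.45 at *Cxxc1*, 1.10 at *Kdm5a*, 0.18 at *Kdm5b* and 0.51 at *Kdm1a*. After quantile normalization they were 0.13 at *Kmt2a*, 0.70 at *Kdm5a* and 0.37 at *Kdm1a*. Which library sets *Kdm5a* is given with its values.

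A replicate block called 0 of the genes and 1 of the 9930 promoters, and left the median of the genes at 0.73. Deviations of same-numbered libraries correlated at 0.20, but with 2 pairs the numbers are not shown to pair the samples. Depth limits WT replicate 1 most, where the 10 windows held 0 to 39 fragments.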
